A study of Mus musculus with 2 samples.

Results

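The genes described here make cholesterol from acetyl-CoA or govern the sterol regulatory element-binding proteins (SREBPs), the transcription factors that switch that synthesis on. The list was drawn up by gene function and named 29 genes. A probe set was taken when the array's annotation gave it exactly 1 gene and that gene was on the list. This found 59 probe sets for 27 of the 29 genes, out of 18193 genes named in this way on the array. Acat2, which joins acetyl-CoA units, and Soat2, which esterifies cholesterol, have no array value here. Acat2 enters the promoter windows only.

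The study compared 2 pools of liver RNA. The renal ischaemia-reperfusion (RIR) pool came from 3 male C57BL/6 wild-type mice aged 8 weeks, with both kidneys made ischaemic for 30 minutes while warm. The sham pool came from 3 mice of the same sex, strain, genotype and age that had sham surgery. Livers of both groups were collected 24 hours after surgery, and each pool was measured on 1 Affymetrix array. With 1 array per group there was no replicate error, so no test or p-value could be given. Every difference describes these 2 pools, and the spread between the mice of a pool is unknown.

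Cholesterol is built in the cytosol and the endoplasmic reticulum. Acetyl-CoA is turned into mevalonate, mevalonate into isoprenoid diphosphates, and these into squalene, whose closed ring is then trimmed to cholesterol. When membranes are poor in sterol, the escort protein SCAP carries SREBP to the Golgi, where proteases free its active part. When sterol is plentiful, the INSIG proteins hold SCAP and SREBP in the endoplasmic reticulum. In liver, SREBP-2 is known mainly for genes of cholesterol synthesis and SREBP-1c for genes of fatty acid synthesis.

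Values are probe set signals in the linear units that were deposited. A difference is the log2 of signal plus 16 in the RIR pool minus the same in the sham pool, and folds were computed from it. Where 1 of the signals lay under its array's median (a dim signal), the fold is a bound taken against that median. Counts past 2-fold use the measured differences, and are given again with dim signals raised to the median where that changes them. A probe set was kept when its brighter signal reached the median of that array, which was 254.1 in the RIR pool and 257.0 in the sham pool. A gene with several such probe sets was represented by the one with the highest mean log2 value. Of the 27 genes, 26 passed with 50 probe sets. Mvk, the kinase that phosphorylates mevalonate, did not. Its 2 probe sets read 22.3 and 73.6 in the RIR pool, against 90.1 and 42.2 in the sham pool, so no fold is given.

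Most of the pathway gave lower signals in the RIR pool. Of the 26 genes, 12 were at least 2-fold lower (46.2%), where 9.59% of all 13117 genes past the filter were that low. Only Insig2 was at least 2-fold higher, where 8.71% of all genes were that high. With dim signals raised to the median these counts were the same, where 6.59% of all genes were that low and 5.5% that high. The median log2 difference of the 26 genes was -0.89, and 22 of them lay below 0. Over all genes the median was -0.01 and the quartiles were -0.45 and 0.42. Among the 17 enzymes measured, 9 were at least 2-fold lower, none was 2-fold higher, and the median was -1.09.

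**Figure D1:**
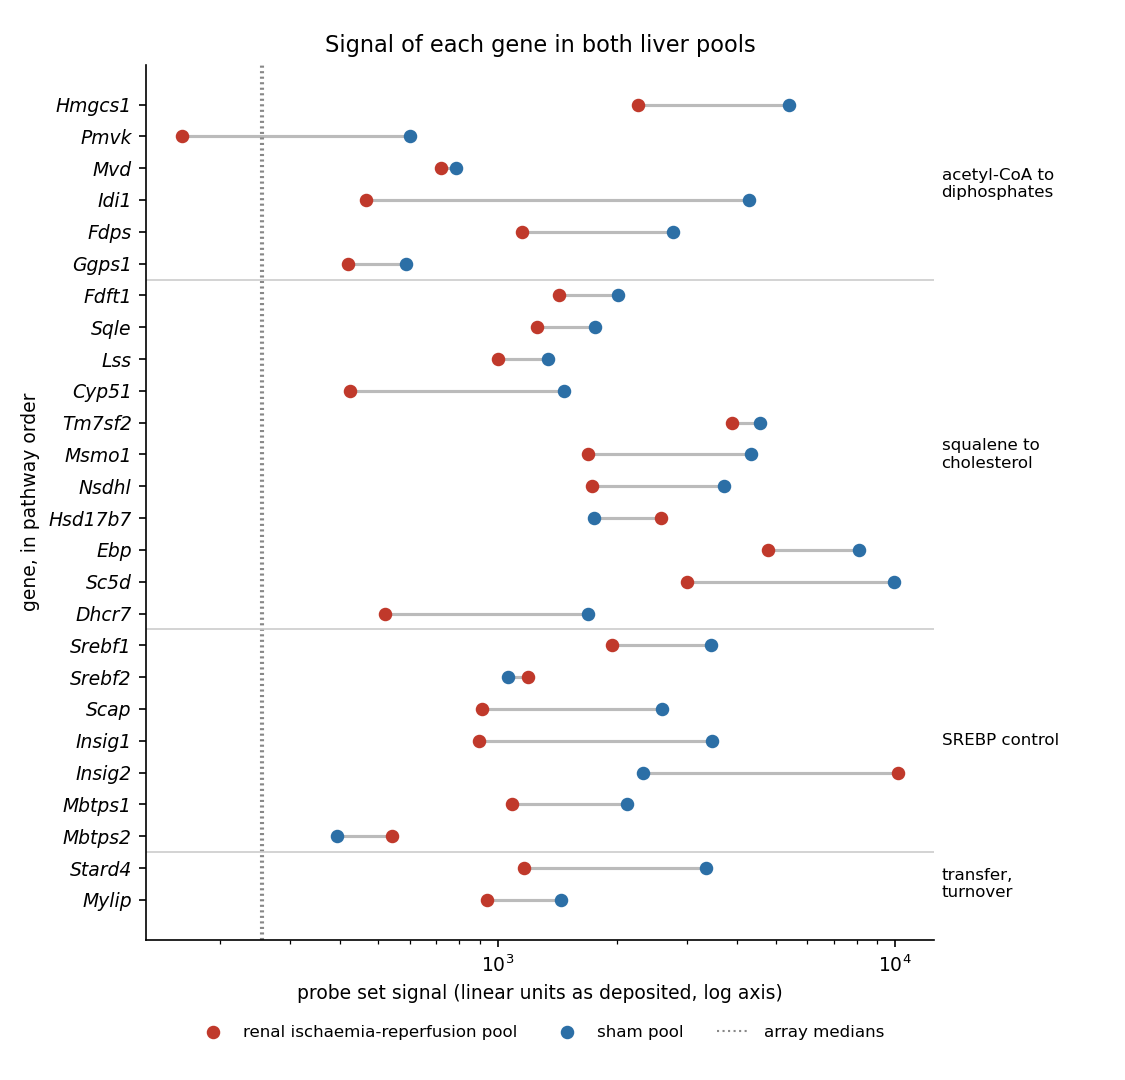
Signal of each gene's representative probe set (log axis, linear units as deposited) in the renal ischaemia-reperfusion pool (red) and the sham pool (blue), 1 array each, with genes in pathway order and the array medians dotted. For 22 of the 26 genes the red point lies left of the blue one, and Insig2, at 10156 in the renal ischaemia-reperfusion pool and 2319 in the sham pool, lies far to the other side.

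The arrays and tissue were checked first. Both arrays had been scaled to a trimmed mean of 500.0. The 18 bacterial hybridisation controls were all higher in the RIR pool, by a median of 0.28. With these controls as the reference every log2 difference shifts by -0.28, which takes the median of all genes to -0.30. Then 15 of the 26 genes were at least 2-fold lower, against 15.4% of all genes, and Insig2 was still at least 2-fold higher. As a sign of RNA quality, the 3' over 5' control ratio was 1.24 for beta-actin and 0.721 for Gapdh in the RIR pool, against 1.38 and 0.743 in the sham pool. Hepatocyte markers had a median log2 difference of 0.41 over 11 genes, with a summed signal of 481189 in the RIR pool and 346168 in the sham pool. Of these 11, 7 lay above 0 and 4 below, from Cps1 at -1.12 to Fgb at 1.27. Some markers of other cells were higher as well. All 9 pancreatic acinar markers past the filter lay above 0, and 8 were past 2-fold by measured difference, or 7 with dim signals raised. Over all genes, 8.71% were that high by measured difference and 5.5% with dim signals raised. Of these 9, 4 passed the filter through the RIR pool alone. The 9 had a summed signal of 14122 in the RIR pool and 5242 in the sham pool. The 3 biliary markers past the filter were past 2-fold by measured difference, or 2 of them with dim signals raised, and 2 of the 3 passed through the RIR pool alone. They summed to 2421 in the RIR pool and 572 in the sham pool. Markers of Kupffer cells (10 genes) had a median of -0.43 (-0.37 with dim signals raised), neutrophils (8 genes) 0.12, sinusoidal endothelium (9 genes) -0.23 and stellate cells (9 genes) -0.42 (-0.38 with dim signals raised). Some single markers lay far from these medians. The neutrophil markers S100a8, which can cross-hybridise with related sequences, and S100a9 were at least 5.21-fold and 2.95-fold higher. Another 3 of the 8 lay below 0. The endothelial marker Lyve1 stood at 3.01, and 6 of the 9 lay below 0, among them Dnase1l3 (-1.66) and Clec4g (-1.05). Of the 10 Kupffer cell markers, 8 lay below 0 and 2 above. The lowest of them were C1qa, at least 3.61-fold lower against a dim RIR signal, and Cd5l (-1.57). Lymphocyte (6 genes), kidney tubule (6 genes) and erythroid markers (2 genes) had medians of 0.11 (0.10 with dim signals raised), 0.07 and 0.03. The part of other cells in the results was not tested, and in whole liver fewer cells of a type and less RNA per cell cannot be told apart.

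The first enzymes lead from acetyl-CoA to the isoprenoid diphosphates. Of the 6 measured here, 4 were at least 2-fold lower and all 6 lay below 0, with a median of -1.25 (-1.22 with dim signals raised). Over all genes 9.59% were at least 2-fold lower. Hmgcs1 encodes the cytosolic HMG-CoA synthase, which makes the precursor of mevalonate. Its brightest probe set read 2256 in the RIR pool and 5399 in the sham pool, a log2 difference of -1.25. That probe set can cross-hybridise with related sequences. The other 3 past the filter lay between -1.59 and -1.16, so all 4 were at least 2-fold lower. The remaining Hmgcs1 probe set was dim in both, at 140.0 in the RIR pool and 19.4 in the sham pool.

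Pmvk, which adds the second phosphate to mevalonate, had signals of 160.7 in the RIR pool and 601.5 in the sham pool. The RIR signal is dim, so the fold is a bound: at least 2.29-fold lower. Mvd, which decarboxylates the product, differed little by its brighter probe set, with signals of 718.2 in the RIR pool and 783.2 in the sham pool and a log2 difference of -0.12. Its other probe set, which can cross-hybridise and was dim in the sham pool, was at least 1.10-fold higher. The mean of both was 0.22, or 0.00 with the dim signal raised.

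Idi1 showed the largest difference of all 26 genes. It encodes the isomerase that converts isopentenyl diphosphate into dimethylallyl diphosphate, the pair from which longer isoprenoids are built. The signal was 467.7 in the RIR pool and 4280 in the sham pool, 8.88-fold lower. Its second probe set read 348.1 in the RIR pool and 2861 in the sham pool, a log2 difference of -2.98. Of the 13117 genes, 57, Idi1 included, had a measured difference as low (0.435%).

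Fdps makes farnesyl diphosphate, the branch point towards sterols and other isoprenoids. Its brighter probe set read 1149 in the RIR pool and 2759 in the sham pool, a log2 difference of -1.25. Its other probe set went the opposite way, at 277.2 in the RIR pool and 101.9 in the sham pool, where the sham value is dim and the fold is at least 1.07-fold higher. The mean of both was 0.03, or -0.57 with the dim signal raised, so the 2-fold call of Fdps rests on 1 probe set. Ggps1, which makes geranylgeranyl diphosphate for protein prenylation, differed less, with signals of 421.2 in the RIR pool and 587.4 in the sham pool by a probe set open to cross-hybridisation. Both of its probe sets past the filter were lower, at -0.46 and -0.55.

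The promoter windows of Hmgcs1 and Idi1 are shown because the plan named them. Every probe set of these 2 genes past the filter was at least 2-fold lower, which held for 9 genes in all. Each window runs from 250 bases before to 50 bases after the annotated start, in RefSeq for GRCm38.p6. SREBPs are known to bind sterol regulatory elements and to act together with NF-Y and Sp1. Capitals mark matches on either strand to a sterol regulatory element core, spelled TCACNCCAC or without its last base, to the NF-Y box CCAAT and to the Sp1 site GGGCGG, called the GC box here. The Hmgcs1 window is chr13:119690101-119690400 on the plus strand, and the Idi1 window is chr13:8885356-8885655 on the plus strand.
Hmgcs1: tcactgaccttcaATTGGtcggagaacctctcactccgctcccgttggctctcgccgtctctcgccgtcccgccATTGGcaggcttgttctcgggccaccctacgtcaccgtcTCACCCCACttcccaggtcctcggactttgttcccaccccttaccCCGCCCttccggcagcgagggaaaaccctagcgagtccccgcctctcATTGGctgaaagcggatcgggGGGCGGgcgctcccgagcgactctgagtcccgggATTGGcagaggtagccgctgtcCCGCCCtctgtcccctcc
Idi1: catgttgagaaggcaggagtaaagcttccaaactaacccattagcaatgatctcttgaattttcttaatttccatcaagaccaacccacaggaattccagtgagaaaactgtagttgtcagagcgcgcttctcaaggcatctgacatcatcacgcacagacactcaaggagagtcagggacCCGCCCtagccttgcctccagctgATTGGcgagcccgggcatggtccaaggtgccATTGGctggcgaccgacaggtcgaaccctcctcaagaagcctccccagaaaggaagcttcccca
The Hmgcs1 window held 1 sterol regulatory element core, starting 137 bases before the start, with 4 NF-Y boxes and 3 GC boxes. The Idi1 window held 2 NF-Y boxes and 1 GC box and no match to the core.

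The remaining 11 enzymes lead from squalene to cholesterol, and all were measured. Of these, 5 were at least 2-fold lower, where 9.59% of all genes were that low. Of the 11, 10 lay below 0, and the median was -0.76. Fdft1 and Sqle, which make squalene and oxidise it, stood at the start of this branch and differed by less than 2-fold. Fdft1 had signals of 1430 in the RIR pool and 2004 in the sham pool (-0.48). Its other 2 probe sets past the filter stood at -1.73, a value open to cross-hybridisation, and 0.76, so its probe sets differed in sign. The sham signal behind the 0.76 was 257.5, barely above that array's median of 257.0. Sqle had 1253 in the RIR pool and 1755 in the sham pool by its only probe set (-0.48). Lss, the cyclase that closes the sterol ring, read 1001 in the RIR pool and 1340 in the sham pool (-0.41), a value open to cross-hybridisation. Each of its other 2 probe sets past the filter had 1 dim signal. One was at least 1.22-fold lower and the other at least 1.12-fold higher.

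All 5 enzymes of this branch past 2-fold demethylate, desaturate or reduce the ring. So do Tm7sf2 (-0.23) and Hsd17b7 (0.55), which differed by less than 2-fold. Cyp51, the cytochrome P450 that removes the first methyl group of lanosterol, read 425.3 in the RIR pool and 1469 in the sham pool, 3.37-fold lower. A second probe set past the filter gave -0.86. Msmo1, the sterol oxidase that starts removal of the next methyl groups, had 1692 in the RIR pool and 4332 in the sham pool (-1.35). Its partner dehydrogenase Nsdhl had 1730 in the RIR pool and 3704 in the sham pool (-1.09). Msmo1 and Nsdhl rest on 1 probe set each.

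Sc5d, which adds a double bond to the sterol ring, read 2998 in the RIR pool and 9946 in the sham pool, 3.30-fold lower. Its other 2 probe sets stood at -1.31 and, against a dim RIR signal, at least 5.79-fold lower, so all 3 were at least 2-fold lower. Dhcr7, the reductase of the last step, had signals of 521.6 in the RIR pool and 1689 in the sham pool (-1.67) by its only probe set.

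Other enzymes of this branch differed less. Tm7sf2, a sterol reductase, had signals of 3890 in the RIR pool and 4563 in the sham pool (-0.23). The isomerase Ebp had 4772 in the RIR pool and 8093 in the sham pool (-0.76). Hsd17b7, the ketosteroid reductase that completes demethylation, was the 1 enzyme above 0. It read 2576 in the RIR pool and 1751 in the sham pool (0.55), again open to cross-hybridisation. Of its other 3 probe sets, 2 stood at 0.36 and 0.00, and 1 with a dim RIR signal was at least 1.33-fold lower.

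**Figure D2:**
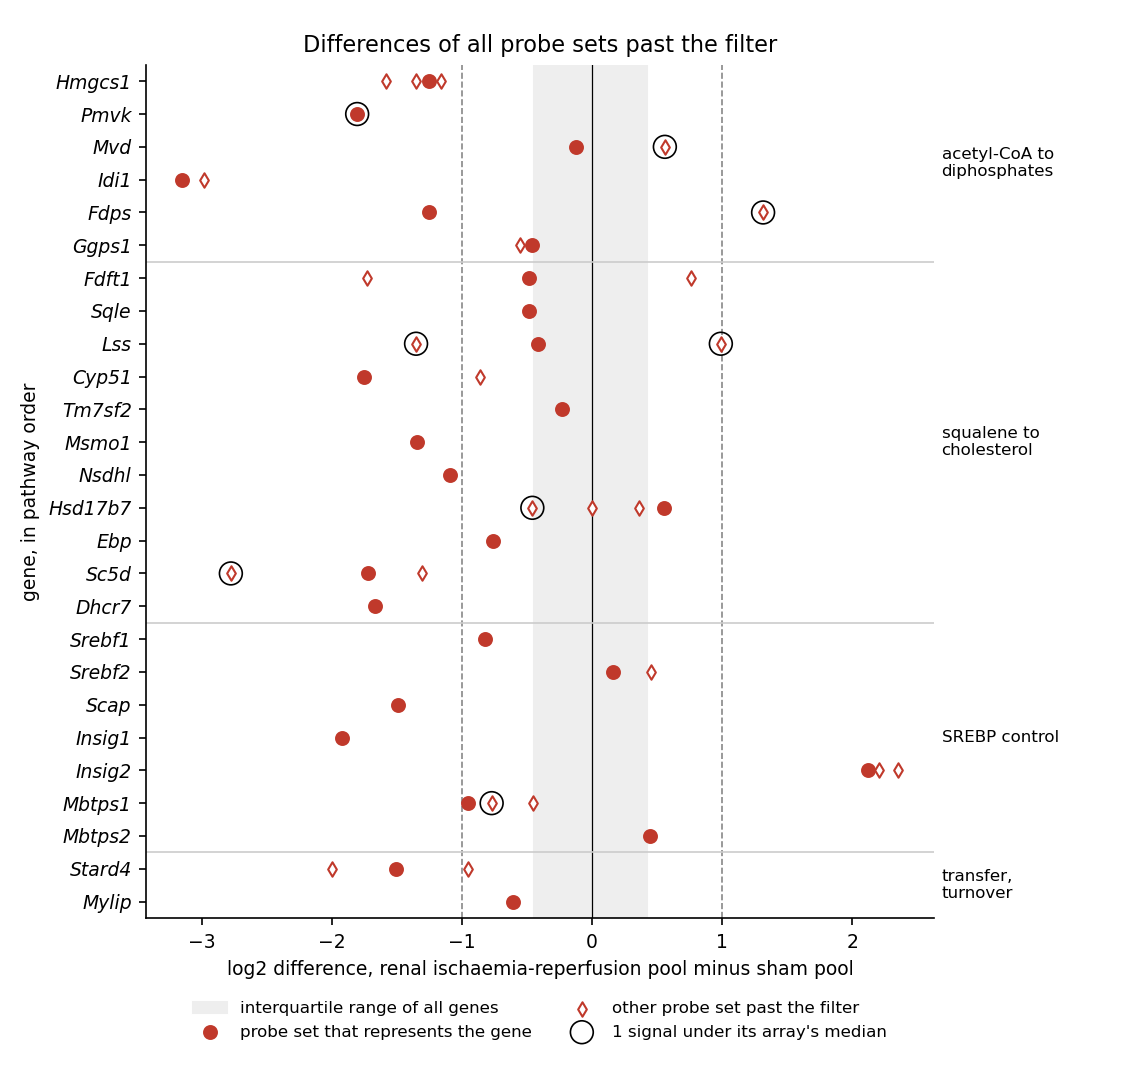
Log2 difference, renal ischaemia-reperfusion pool minus sham pool, of all 50 probe sets past the filter, in pathway order. Filled points represent the gene, open points are its other probe sets, black circles surround the 8 measured differences with 1 dim signal, dashed lines mark 2-fold and the grey band the interquartile range of all genes; all 4 probe sets of Hmgcs1 and all 3 of Sc5d lie left of the 2-fold line, whereas those of Fdps, Fdft1 and Lss fall on both sides of 0.

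Agreement between probe sets set the limit on single genes. The SD between probe sets of 1 gene was 0.72 on the log2 scale, both over the 14 genes here with several of them and over the whole array. Of the 50 probe sets, 37 were lower in the RIR pool and 21 at least 2-fold lower by measured difference, where 10.8% of all 21003 probe sets with 1 gene were that low. Another 4 were as far higher, the 3 of Insig2 and the dimmer one of Fdps, where 10.4% of all were that high. Among the 50, 8 had 1 dim signal. With these raised, 20 were at least 2-fold lower, where 6.58% of all were that low, and 3, those of Insig2, at least 2-fold higher, where 6.01% of all were that high. Probe sets of both signs were seen in 5 genes, Mvd, Fdps, Fdft1, Lss and Hsd17b7, with dim signals raised or not. Of the 12 genes at least 2-fold lower, 9 were so by every probe set past the filter, and 6 of these 9 had only 1.

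The Cyp51 window was also named in the plan. Cyp51 was the lowest enzyme of the sterol branch by its representative probe set. The window is chr5:4104648-4104947 on the minus strand of GRCm38.p6, with the same marks as above.
Cyp51: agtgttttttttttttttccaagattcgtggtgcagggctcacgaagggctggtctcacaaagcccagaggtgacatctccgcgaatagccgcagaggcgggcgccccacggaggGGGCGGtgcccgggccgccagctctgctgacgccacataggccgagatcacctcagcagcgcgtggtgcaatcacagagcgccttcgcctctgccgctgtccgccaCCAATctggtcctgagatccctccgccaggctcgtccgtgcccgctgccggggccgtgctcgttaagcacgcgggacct
The Cyp51 window held 1 NF-Y box, 29 bases before the start, 1 GC box and no match to the core as spelled here.

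The genes that control SREBP did not share 1 direction. Of 7, all measured, 2 were at least 2-fold lower (Insig1 and Scap) and 1 at least 2-fold higher (Insig2), and the median was -0.82. Over all genes 9.59% were that low and 8.71% that high. Srebf1 encodes SREBP-1, and had signals of 1943 in the RIR pool and 3446 in the sham pool (-0.82) by 1 probe set that matches several of its transcripts. Srebf2 encodes SREBP-2 and differed little, with 1189 in the RIR pool and 1061 in the sham pool (0.16) and a second probe set at 0.45. With the hybridisation controls as the reference Srebf2 stood at -0.12, so its small difference has no settled sign.

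Scap, the escort of SREBP, read 910.4 in the RIR pool and 2593 in the sham pool, 2.82-fold lower. Its second probe set was under the median on both arrays. Mbtps1, the Golgi protease that makes the first cut in SREBP, had 1083 in the RIR pool and 2115 in the sham pool (-0.96), with another probe set at -0.46 and the remaining one, dim in the RIR pool, at least 1.17-fold lower. Mbtps2, the protease of the second cut, had 543.0 in the RIR pool and 394.5 in the sham pool (0.45) by 1 probe set.

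The INSIG genes stood at opposite ends. Insig1 is itself a target of SREBP, and its signal was 898.3 in the RIR pool and 3451 in the sham pool, 3.79-fold lower. A difference as low was seen in 362 genes (2.76%). Insig2 read 10156 in the RIR pool and 2319 in the sham pool, 4.36-fold higher. Its other 2 probe sets were higher too, at 3676 and 4524 in the RIR pool against 707.9 and 966.8 in the sham pool, so all 3 lay between 2.12 and 2.35. A difference as high was seen in 226 genes (1.72%). The gap between Insig2 and Insig1 was 4.05 on the log2 scale, a value that no shift common to all probe sets can alter. In mouse liver Insig2 is known to have a liver-specific transcript that insulin represses. The annotation used here does not say which transcripts these probe sets read.

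**Figure D3:**
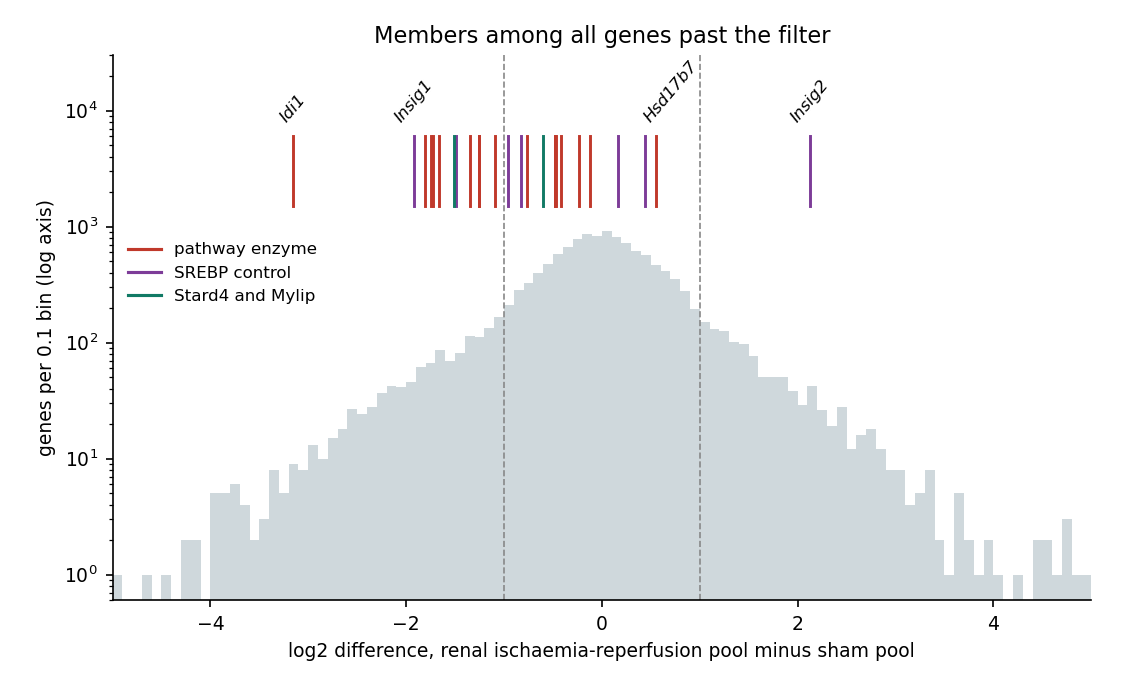
Distribution of log2 differences, renal ischaemia-reperfusion pool minus sham pool, over all 13117 genes (bins of 0.1, log count axis; 17 genes beyond 5 in either direction are not drawn), with a tick for each of the 26 genes and dashed lines at 2-fold. Most ticks sit left of the centre, Idi1 lies furthest left at -3.15, and Insig2, at 2.12, is the only tick right of the upper 2-fold line.

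The windows of the INSIG genes are shown because the pair differed in opposite directions. Insig1 has 1 annotated start in the table, chr5:28071162-28071461 on the plus strand. Insig2 has 3 on the minus strand of chromosome 1, with windows chr1:121332540-121332839 (window 3, the most upstream), chr1:121327975-121328274 (window 2) and chr1:121327629-121327928 (window 1).
Insig1: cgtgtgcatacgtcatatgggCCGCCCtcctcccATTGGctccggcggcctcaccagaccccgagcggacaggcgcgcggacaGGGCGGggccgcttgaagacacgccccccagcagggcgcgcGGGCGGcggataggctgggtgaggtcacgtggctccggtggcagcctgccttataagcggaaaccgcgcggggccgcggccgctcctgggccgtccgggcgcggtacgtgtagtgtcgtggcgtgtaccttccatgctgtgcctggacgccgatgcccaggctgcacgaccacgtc
Insig2 window 3: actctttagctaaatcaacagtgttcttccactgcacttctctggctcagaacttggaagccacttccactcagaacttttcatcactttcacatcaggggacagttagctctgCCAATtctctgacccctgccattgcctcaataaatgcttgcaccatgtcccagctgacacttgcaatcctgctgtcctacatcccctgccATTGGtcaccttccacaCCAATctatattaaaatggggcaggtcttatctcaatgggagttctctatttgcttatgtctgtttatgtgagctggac
Insig2 window 2: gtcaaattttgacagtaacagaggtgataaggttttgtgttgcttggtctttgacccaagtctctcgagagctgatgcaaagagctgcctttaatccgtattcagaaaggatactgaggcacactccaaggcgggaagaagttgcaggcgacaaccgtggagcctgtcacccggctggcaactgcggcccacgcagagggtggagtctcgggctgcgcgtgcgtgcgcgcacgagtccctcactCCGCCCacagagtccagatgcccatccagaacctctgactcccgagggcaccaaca
Insig2 window 1: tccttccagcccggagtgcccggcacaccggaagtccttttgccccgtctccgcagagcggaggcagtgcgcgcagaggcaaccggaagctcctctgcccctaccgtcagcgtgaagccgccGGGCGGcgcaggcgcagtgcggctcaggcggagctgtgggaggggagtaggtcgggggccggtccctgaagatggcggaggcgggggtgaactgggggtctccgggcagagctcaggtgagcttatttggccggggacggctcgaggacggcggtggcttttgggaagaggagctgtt
The Insig1 window held 1 NF-Y box and 3 GC boxes. The upstream Insig2 window held 3 NF-Y boxes and no GC box, and the other 2 held 1 GC box each and no NF-Y box. No window of either gene matched the sterol regulatory element core as spelled here.

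Over all genes of the list, windows were at hand for 24 genes, 16 of them enzymes, from a table of 27025 genes. These 16 are not the same set as the enzymes measured on the arrays. They include Acat2 and Mvk, which have no array difference, and lack the measured Fdps, Fdft1 and Sqle. An NF-Y box stood in at least 1 window of 15 of the 16 enzymes (93.8%), against 41.1% of all genes and 41.8% of the genes past the array filter. A GC box stood in 14 of the 16 (87.5%), against 38.2% of all genes and 62.2% of those past the filter. Both together were found in 13 of the 16 (81.3%), against 15.8% and 26.3%. The E-box CACGTG was found in 3 of the 16 enzymes (18.8%), against 8.09% of all genes and 10.8% of those past the filter. The full core TCACNCCAC was found only in Hmgcs1 among the 24 genes, and in 1.44% of all genes. Its shorter form, chosen after the first result was seen, was also found in Msmo1 and Srebf2, and in 4.97% of all genes. The shorter form lies within the full one, and no other motifs overlapped each other in the windows of the 24 genes. Genes with several starts had more windows to match. Genes with small differences held these boxes too: Hsd17b7, above 0, held 3 NF-Y boxes and 3 GC boxes, and Tm7sf2, at -0.23, held 1 and 2. A match is a description of the letters, not of a bound site. Only these spellings were searched, so a window without a match may hold an element that is spelled otherwise.

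**Figure D4:**
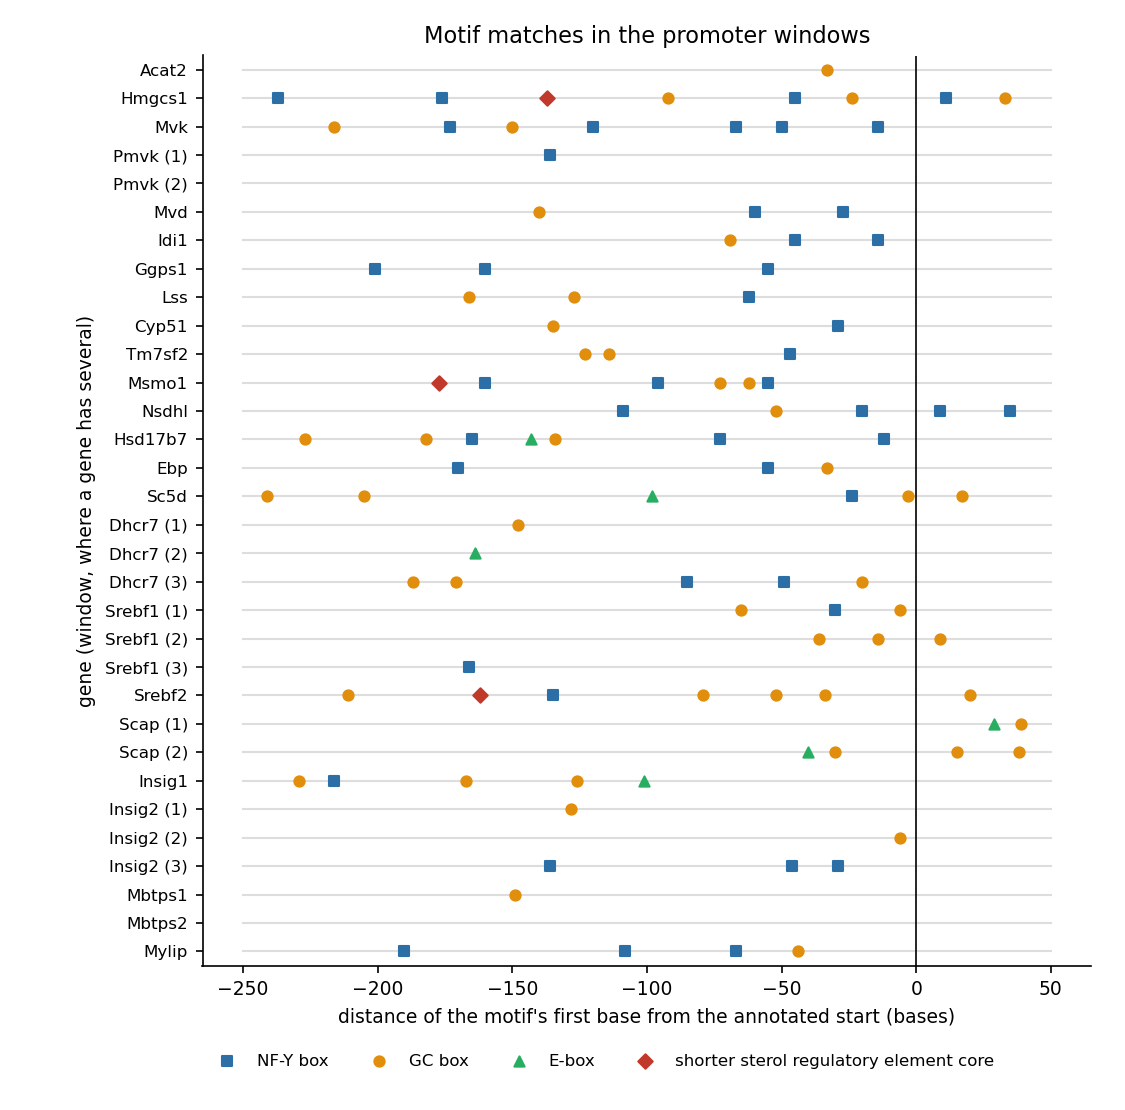
Position of motif matches (either strand) relative to the annotated start in the promoter windows, from 250 bases before it to 50 after; numbers in brackets name the windows of genes with several starts. NF-Y boxes (squares) and GC boxes (circles) recur across the enzymes, whereas matches to the shorter spelling of the sterol regulatory element core (diamonds) stand in Hmgcs1, Msmo1 and Srebf2 only. Other spellings were not searched.

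The other 2 genes measured act in sterol transfer and in the turnover of lipoprotein receptors. Stard4, which carries cholesterol between membranes, had signals of 1163 in the RIR pool and 3336 in the sham pool, 2.84-fold lower. All 3 of its probe sets were lower, from -2.00 to -0.95. Mylip, a ubiquitin ligase that marks lipoprotein receptors for degradation, had 941.7 in the RIR pool and 1442 in the sham pool (-0.61) by 1 probe set.

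Neighbouring genes of the pathway were described in the same way, beside the 9.59% of all genes at least 2-fold lower and the 8.71% at least 2-fold higher. Among 13 targets of SREBP-1 in fatty acid synthesis, 10 were past 2-fold on the lower side and 1 on the higher side, with a median of -1.31. Acss2, which activates acetate, was the lowest of these at 475.5 in the RIR pool and 4865 in the sham pool (-3.31), and the elongase Elovl6 followed at -2.00. The elongase Elovl5 was the highest (1.12), and the desaturase Scd1 differed little (-0.09). Genes that supply acetyl-CoA and NADPH had 5 of 8 at least 2-fold lower and 1 higher, with a median of -1.22. ATP citrate lyase, Acly, stood at -1.81 beside Acss2, whereas the pentose phosphate enzymes Pgd (1.16) and H6pd (0.42) were above 0, the value of Pgd being open to cross-hybridisation. Acly, Acss2 and Me1 belong to both of these lists. Of 3 electron carriers that serve sterol oxidation, Cyb5b was lower (-1.65), Cyb5r3 stood at -0.70, a value open to cross-hybridisation, and Cyb5a at 0.09.

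The lists of isoprenoid branches and of endoplasmic reticulum-associated degradation had medians near the -0.01 of all genes. Of 11 genes that use isoprenoids for dolichol, ubiquinone and prenylation, none was 2-fold lower and 1 was 2-fold higher, with a median of 0.05. Dhdds, a dolichol-chain synthase subunit, was the highest (1.14) and its partner Nus1 followed (0.89), and Nus1 was read by a probe set open to cross-hybridisation. The transfer RNA enzyme Trit1 (-0.88) and the ubiquinone-chain subunit Pdss2 (at least 1.55-fold lower) were the lowest. Genes of endoplasmic reticulum-associated degradation and sterol sensing stood at a median of -0.06 (13 genes). By measured difference 1 was past 2-fold on the lower side and 2 on the higher, or 1 on each with dim signals raised. Beside both lists, 9.59% of all genes were at least 2-fold lower and 8.71% higher by measured difference. With dim signals raised these shares were 6.59% and 5.5%. The ubiquitin-conjugating enzyme Ube2g2 was the highest, at 1510 in the RIR pool and 273.3 in the sham pool (2.40). Paqr3, a Golgi anchor of SCAP, had a dim sham signal and was at least 1.85-fold higher, and the ligase Rnf145 (-1.04) and Aup1 (-0.68) were the lowest.

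Genes of sterol export, trafficking and the liver X receptor stood at a median of -0.32 (15 genes). On each side 3 were past 2-fold, where 9.59% of all genes were that low and 8.71% that high. Gramd1c (-1.56) and Stard5 (-1.48), both sterol carriers, were the lowest, and the value of Stard5 is open to cross-hybridisation. Abca1, which loads cholesterol onto apolipoprotein A-I, read 15672 in the RIR pool and 5836 in the sham pool (1.42). The endosomal carrier Stard3 was at least 2.17-fold higher.

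**Figure D5:**
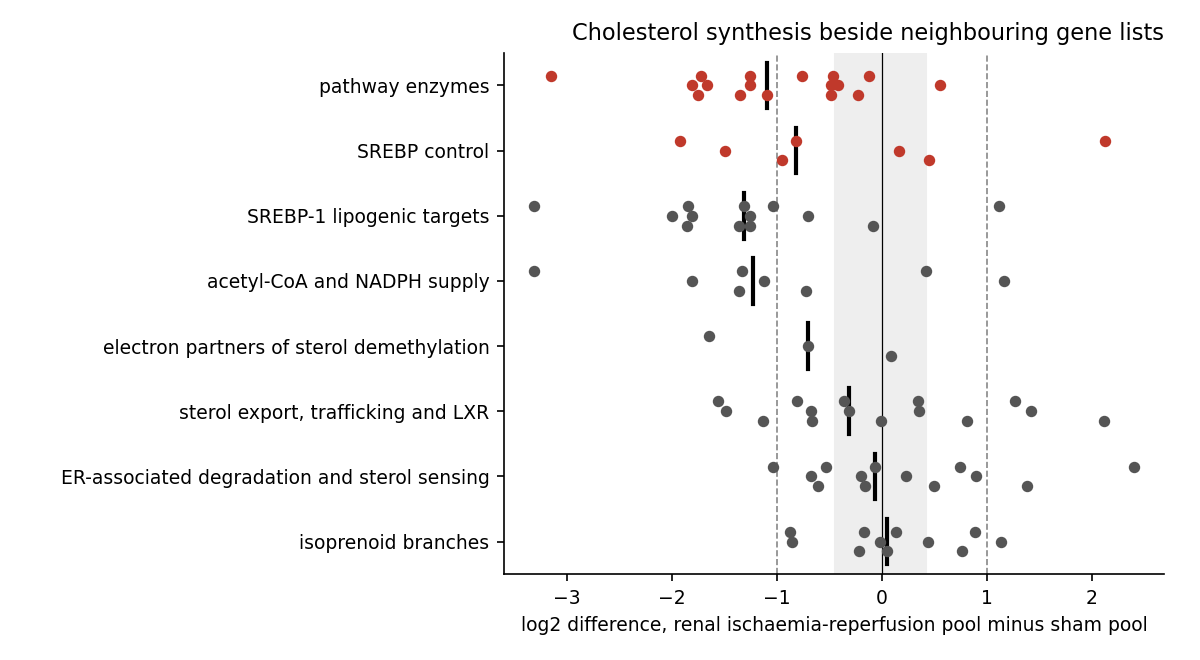
Log2 difference, renal ischaemia-reperfusion pool minus sham pool, of each gene past the filter (points) and the list median (black bar), with the enzymes and control genes of the cholesterol pathway in red, neighbouring lists in grey, 2-fold as dashed lines and the interquartile range of all genes as a grey band. The medians of the enzymes, of SREBP-1 targets and of acetyl-CoA and NADPH supply lie left of the 2-fold line, at -1.09, -1.31 and -1.22, and that of the isoprenoid branches lies at 0.05.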

How the data were processed

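Liver RNA pools of 3 mice were hybridised to 1 array each, from 6 ug of total RNA per the labels' protocols. The deposited values are a linear intensity per probe set, scaled by the authors to a trimmed mean of 500.0 (2% left out at each end) on both arrays. Neither the labels nor the file name the software that summarised probes, so it is not given in the sources used. The groups come from the treatment label. Of 45037 probe sets that are not controls, 34945 had 1 gene, 932 several and 9160 none named here, by the platform annotation, which can be old. For 34741 of the 34945 the current symbol was looked up through the Entrez ID, whether or not it differed.

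Values were log2 of signal plus a pseudocount of 16. A probe set entered when its brighter signal was at or above that array's median (21003 probe sets, 13117 genes), and the brightest represented the gene. A fold against a signal under the median is a bound, taken against that median. With 1 array per group, whose number limits the precision, nothing was tested and a 2-fold threshold was used. Every listed gene was named, with up to 2 highest and 2 lowest genes of each neighbouring list. The genes and lists were chosen with earlier results of these data known. A suffix of _x_at or _s_at marks a probe set open to cross-hybridisation, and _a_at one that matches several transcripts of a gene; 1 alternative left out all 3 kinds.

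Promoter windows came from RefSeq (GRCm38.p6), matched by symbol. The planned Sqle window was not used here. The alternatives were 4 scalings, pseudocounts of 1 and 64, 3 other filters, dim signals raised to the median, 3 other choices of probe set, and thresholds of 1.5-fold and 3-fold. Leaving out genes with probe sets of both signs, and raising dim signals in the neighbouring lists, the probe set counts and the 3-fold counts, were chosen after the data were seen. Steps were tested on simulated arrays. Python 3.11.15, pandas 2.3.3 and statsmodels 0.14.6 were used.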

Additional observations from a re-analysis of the deposited data

How the results depend on the processing

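Of the 13 genes at least 2-fold different, 11 had a value under all 13 alternatives for single genes; Pmvk had 10, lost by both stricter filters and by leaving out suffixed probe sets, and Msmo1 had 12, lost by the last. Under the alternatives that gave a value, 12 of the 13 genes kept their sign and 10, Pmvk and Msmo1 included, stayed past 2-fold. The exceptions were Fdps, whose mean over probe sets was 0.031 (-0.57 with the dim signal raised), and Cyp51 (-0.86) and Stard4 (-0.95) where the smallest difference represented the gene. Without the 3 kinds of suffixed probe set (_a_at, _s_at, _x_at) 23 genes remained, and Lss was left with a dim probe set at least 1.12-fold higher. Apart from the fold thresholds, the count of genes at least 2-fold lower ranged from 10 to 15, and the median from -1.17 to -0.74. For the enzymes these ranges were 7 to 10 and -1.38 to -0.76, and the SREBP control median ranged from -1.11 to -0.40. At 3-fold, 6 genes, 5 of them enzymes and 1 of SREBP control, were lower by measured difference (4.49% of all genes). With dim signals raised, a setting chosen after the data were seen, 5 genes, 4 of them enzymes and 1 of SREBP control, were (2.30% of all genes). SREBP control genes at least 2-fold lower numbered 4, not 2, with the hybridisation controls as the reference (15.4% of all genes), and 4 passed at 1.5-fold (19.3% of all genes). That reference took the higher genes from 47.6% to 27.3% of all genes past 2-fold. Requiring both signals at or above the median left 676 genes 2-fold lower, against 1258, and 563 higher, against 1143. No paired analysis was possible because each group is 1 pool on 1 array. Dim signals limit Pmvk to a bound and leave Mvk without a fold.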
